A study of Homo sapiens with 9 samples.

Results

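The transcripts described here are 10 regulators of apoptosis, 9 of the BCL2 family and CFLAR, which were taken by gene symbol from a table of 60664 human Ensembl identifiers. Each of the 10 symbols matched 1 identifier, and all 10 were among the 16903 genes with enough counts to be tested. They were measured in A549 cells, an established line of human lung adenocarcinoma, by RNA sequencing of total RNA. The 3 groups were cells with the hairpin labelled shHES1, cells with the hairpin labelled shHES4 and cells with the control hairpin, shCtrl, with 3 libraries each. All 9 libraries share the parental line, the TRIzol extraction and the SMARTer library kit. The labels give no hairpin sequence, vector, clone number or time after transduction. Nor do they say whether the libraries of a group are separate cultures. The p-values then reflect only how much these libraries vary, and that variation may be technical. HES1 and HES4 are basic helix-loop-helix repressors of transcription, and the stated purpose was to find genes that differ when each is targeted.

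Proteins of the BCL2 family decide whether the outer membrane of the mitochondrion is permeabilised, the step that commits a cell to intrinsic apoptosis. Survival proteins (BCL2, BCL2L1, MCL1, BCL2A1) hold the pore-forming effectors BAK1 and BAX in check, and BH3-only proteins (BCL2L11, BMF, BIK, BID) bind and oppose the survival proteins or engage the effectors. CFLAR, also called c-FLIP, acts at death receptors instead, where it competes with caspase-8 for the adaptor FADD, and BID links the receptor route to the mitochondrion once caspase-8 has cut it.

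Library totals ranged from 22.8 to 27.6 M estimated counts. Levels are given as CPM, counts scaled to a common library size with TMM factors, which adjust each total for differences in composition. A gene is called higher or lower, and said to have risen or fallen, where edgeR's quasi-likelihood test gave a Benjamini-Hochberg adjusted p under 0.05 over all genes tested. Every adjusted p below is of this test. The target check did not match both labels. HES1 stood at 9.11, 6.40 and 8.32 CPM in the libraries labelled shHES1, against 6.99, 6.55 and 7.17 CPM in shCtrl cells (log2 fold change 0.20 ± 0.12 SE, adjusted p = 0.345), so it was not lower there. HES4 fell in both hairpin groups, to 18.3, 15.2 and 15.7 CPM in the libraries labelled shHES1 and to 20.4, 17.1 and 16.6 CPM in shHES4 cells, against 21.3, 25.4 and 27.7 CPM in shCtrl cells. Its log2 fold changes against shCtrl were -0.59 ± 0.10 with shHES1 (adjusted p = 7.60e-04) and -0.46 ± 0.10 with shHES4 (adjusted p = 0.00992). The shHES4 call ended without shHES4 replicate 2 (adjusted p = 0.0549) or replicate 3 (0.0619), and with a GC and length correction plus replicate block (-0.23, adjusted p = 0.0650). Below, shHES1 therefore means the libraries labelled so. Within a group, pairs of libraries differed by 2.36 to 3.30 times counting noise (chi-square per degree of freedom), except pairs with shCtrl replicate 3, at 5.06 to 6.78, and pairs from different groups differed by 6.20 to 13.2. That library also had the highest mitochondrial share, 7.16% of counts against 5.89% to 6.69% in the others, so results are given without it where they rest on it.

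The check of the cell label gave A549-typical transcripts (keratins, AKR1B10, ALDH3A1, NQO1 and others) in all 9 libraries. Their summed level was 15406 to 15737 CPM in shHES1, 17240 to 17761 CPM in shHES4 and 16839 to 17106 CPM in shCtrl cells. Of these 10 markers, 8 were lower in shHES1 than in shCtrl, with a median log2 fold change of -0.26, and 0 were higher. EPCAM, an epithelial surface marker, was near the floor at means of 2.19, 1.42 and 1.48 CPM in shHES1, shHES4 and shCtrl cells. The defining leukocyte markers CD3E and PTPRC had 0 and 2 counts over all 9 libraries, and the summed level of the 12 leukocyte markers was 85.1 to 88.6 CPM in shHES1, 115.0 to 117.7 CPM in shHES4 and 88.4 to 104.2 CPM in shCtrl cells. Most of it was CD68, a lysosomal protein of macrophages and other cells, at means of 74.2, 103.7 and 84.4 CPM; CD68 was called lower in shHES1 and higher in shHES4 than in shCtrl. Of the 12 leukocyte markers 6 had enough counts to be tested, CD68 among them. CD14 had means of 4.36, 3.54 and 3.15 CPM and ITGAM of 4.65, 5.22 and 4.86 CPM in shHES1, shHES4 and shCtrl cells. CD79A, LAPTM5 and CORO1A were lower than these but also tested. The part of CD68 and the other markers in the results below was not tested. In bulk RNA a lower level cannot be told apart from fewer cells that carry the transcript.

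Of the 10 transcripts, 2 fell and 0 rose in shHES1 against shCtrl, where 9.73% of all genes tested were called, 5.25% higher and 4.48% lower. Both that fell, CFLAR and BCL2L1, encode inhibitors of cell death, as do the other survival members among the 10. In shHES4 against shCtrl 1 rose, the survival transcript MCL1, and 0 fell, against 5.94% of all genes called (3.24% higher, 2.7% lower). The direct comparison of shHES1 with shHES4 called CFLAR, BCL2L1 and MCL1 lower in shHES1 and 0 higher, against 15.1% of all genes (7.41% higher, 7.65% lower). With so few members these counts are to be read against those shares, and the 3 comparisons share samples. The median log2 fold change of the 10 was -0.15 in shHES1 against shCtrl (all genes -0.0028), 0.11 in shHES4 against shCtrl (all genes 0.0010) and -0.19 in shHES1 against shHES4 (all genes -0.00077). Groups were fully separate in value for 2 members in shHES1 against shCtrl (27.6% of all genes), for 4 in shHES4 against shCtrl (22.4%) and for 6 in shHES1 against shHES4 (33%).

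**Figure D1:**
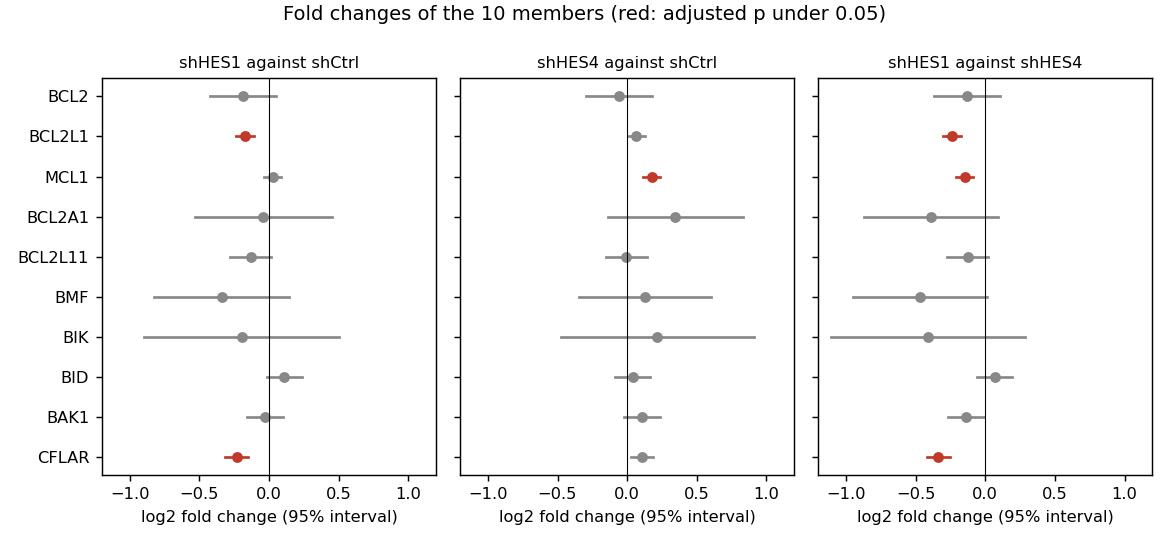
Log2 fold change of each of the 10 transcripts (x axis) in the 3 comparisons, with bars for the 95% interval and red for an adjusted p under 0.05. CFLAR and BCL2L1 lie left of 0 in shHES1 against shCtrl, MCL1 lies right of 0 in shHES4 against shCtrl, and the bars of BIK, BMF and BCL2A1 are the widest.

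Among the survival members, BCL2L1 (ENSG00000171552; chr20:31664452-31723989, minus strand, GRCh38) encodes BCL-XL, which sequesters BAK1, BAX and BH3-only proteins. BCL2L1 stood at 260.0, 255 and 258 CPM in shHES1, 312, 298 and 302 CPM in shHES4, and 285, 297 and 289 CPM in shCtrl cells. All 3 shHES1 libraries lay below all others, and all 3 shHES4 libraries lay above the shCtrl libraries by a margin smaller than the spread within either group. The fall in shHES1 against shCtrl was -0.17 ± 0.03 on the log2 scale, a ratio of 0.886 (adjusted p = 8.86e-04). In shHES4 against shCtrl the estimate was 0.07 ± 0.03 and the adjusted p was 0.235, so no change was called. The direct difference of shHES1 from shHES4 was -0.24 ± 0.03, a ratio of 0.847 (adjusted p = 2.00e-05).

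HES proteins are known to bind the N-box, CACNAG, and the class C site, CACGNG. The region before the BCL2L1 start is shown because this gene was called, lower in shHES1. In those libraries HES1 was not lower (adjusted p = 0.345), while HES4 was (adjusted p = 7.60e-04). Whether a HES protein acts on BCL2L1 was not tested. The 250 bases before the first of its 2 start sites in RefSeq (GRCh38.p14, chr20:31723964-31724213, minus strand) hold 1 N-box, 231 bases before the start and in capitals here, and 0 class C sites.
BCL2L1 start 1: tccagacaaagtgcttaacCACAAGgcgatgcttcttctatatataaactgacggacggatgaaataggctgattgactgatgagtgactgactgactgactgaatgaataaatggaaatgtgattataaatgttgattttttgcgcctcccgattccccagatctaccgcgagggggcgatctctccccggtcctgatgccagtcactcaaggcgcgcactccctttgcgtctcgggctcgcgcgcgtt
Both motifs were searched on both strands in 35116 such windows, of which 32.04% held an N-box and 26.666% a class C site, CACGTG counted once. These are shares of windows and not of genes. BID has 5 windows, CFLAR 4 and BCL2L1 2, and a gene with more windows has more room for a match. Of the 10 genes, 8 were matched to windows; MCL1, which was called, and BIK were not and are outside this comparison. A match is a description of the letters and no evidence of binding, which was not measured.

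MCL1 (ENSG00000143384; chr1:150574551-150579738, minus strand, GRCh38) encodes a short-lived survival protein. MCL1 stood at 284, 278 and 284 CPM in shHES1, 306, 319 and 313 CPM in shHES4, and 283, 277 and 271 CPM in shCtrl cells. All 3 shHES4 libraries were above the other 6, while shHES1 and shCtrl overlapped. The rise in shHES4 against shCtrl was 0.18 ± 0.03 (ratio 1.13, adjusted p = 0.00119), and shHES1 was lower than shHES4 with a log2 difference of -0.15 ± 0.03 (ratio 0.902, adjusted p = 0.00199). In shHES1 against shCtrl the estimate was 0.03 with a 95% interval of -0.04 to 0.09 (adjusted p = 0.674).

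BCL2 (ENSG00000171791; chr18:63123346-63320128, minus strand), the founding survival gene, was low in these cells, at 6.04, 5.39 and 6.10 CPM in shHES1, 6.59, 6.14 and 6.48 CPM in shHES4, and 5.85, 7.18 and 7.0 CPM in shCtrl cells. Its groups overlapped against shCtrl, and neither estimate was called: -0.19 (interval -0.43 to 0.05, adjusted p = 0.350) in shHES1 and -0.06 (interval -0.30 to 0.18, adjusted p = 0.847) in shHES4. BCL2A1 (ENSG00000140379; chr15:79960889-79971446, minus strand), a survival gene known as a target of NF-kB, stood at 1.12, 1.54 and 1.32 CPM in shHES1, 1.81, 1.62 and 1.76 CPM in shHES4, and 1.52, 1.44 and 1.12 CPM in shCtrl cells. The shHES4 values lay above the rest, but these are 27 to 43 counts a library, and the intervals reached from -0.14 to 0.83 in shHES4 against shCtrl (estimate 0.35, adjusted p = 0.450) and from -0.53 to 0.45 in shHES1 (estimate -0.04, adjusted p = 0.943).

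**Figure D2:**
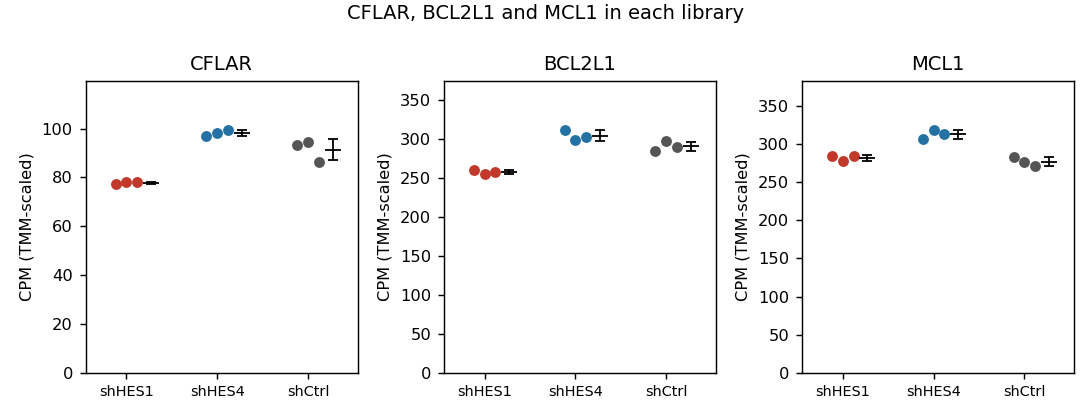
TMM-scaled CPM (y axis, from 0) of CFLAR, BCL2L1 and MCL1 in each library of shHES1, shHES4 and shCtrl cells, with points for libraries and bars for the mean and SD (n = 3). The shHES1 points of CFLAR and BCL2L1 lie below all others, and the shHES4 points of MCL1 lie above all others.

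CFLAR (ENSG00000003402; chr2:201116104-201176687, plus strand, GRCh38) was the member with the largest called fall. CFLAR stood at 77.4, 77.9 and 78.2 CPM in shHES1, 97.1, 98.4 and 99.6 CPM in shHES4, and 93.4, 94.4 and 86.5 CPM in shCtrl cells. The shHES1 libraries were the lowest and the most alike, with a coefficient of variation of 0.510%, and shCtrl replicate 3 was the lowest of the controls. At 2142, 2023 and 2078 counts the spread in shHES1 is smaller than counting noise, so it does not show how precise the fall is. The fall in shHES1 against shCtrl was -0.23 ± 0.04 (ratio 0.852, adjusted p = 6.77e-04), and without shCtrl replicate 3 it was -0.27 (adjusted p = 6.38e-05). In shHES4 against shCtrl the estimate was 0.11 ± 0.04 with no call (adjusted p = 0.128), although the groups did not overlap. A correction for GC content and length called it (0.16, adjusted p = 0.0205), and leaving out shCtrl replicate 3 gave 0.06 (adjusted p = 0.400). The direct difference of shHES1 from shHES4, -0.34 ± 0.04 (ratio 0.792, adjusted p = 7.53e-06), was the largest called among the 10. The falls of CFLAR and BCL2L1 stand beside the lower A549 markers given above, whose part in them was not tested.

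The 250 bases before the first of the 4 RefSeq starts of CFLAR held 3 matches, and 26-base stretches around them are shown for comparison with BCL2L1. All are on GRCh38.p14, plus strand, with the match in capitals, which reads CACNAG or CACGNG on one strand or the other. The first lies 216, the next 138 and the last 62 bases before the start (chr2:201118490-201118515, chr2:201118568-201118593 and chr2:201118644-201118669).
CFLAR N-box, far: ccactcagtcCTGGTGgggtcgcacg
CFLAR class C site: cacccagagaCACGCGagtggccctg
CFLAR N-box, near: gaatttatgtCTTGTGtggtaacatt
Matches also lay before members without a call: BCL2A1 held 1 N-box, BCL2L11 held 1 class C site, and BID held 1 N-box before 1 of its 5 starts. The windows of 2 other BID starts overlap and share 1 CACGTG, which fits the letters CACGNG. The second start of BCL2L1 and the second of CFLAR each had 1 N-box too. The windows of BCL2, BAK1 and BMF held neither motif. Whether the matches go with the falls was not tested.

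Reads of CFLAR could not be kept apart from those of genes that share its exons, since use of strand in counting is not given. Its antisense gene CFLAR-AS1 shares 777 exon bases and the pseudogene IMPDH1P10 shares 1488, but they had only 9 and 24.3 counts a library on average, against 2023 to 2459 for CFLAR. The counts do not separate the long and short forms of CFLAR, which act differently at the receptor. They do not separate the 9 annotated transcripts of BCL2L1 either.

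The 4 BH3-only members had 0 calls in each of the 3 comparisons by edgeR and by DESeq2, and 0 had an unadjusted p under 0.05 by edgeR. BCL2L11 (ENSG00000153094; chr2:111119378-111168447, plus strand) encodes BIM, which binds every survival protein. BCL2L11 stood at 22.3, 21.3 and 23.7 CPM in shHES1, 25.1, 22.4 and 25.9 CPM in shHES4, and 23.1, 24.4 and 26.3 CPM in shCtrl cells. The groups overlapped in every comparison, with estimates of -0.13 (interval -0.28 to 0.02) in shHES1 and -0.01 (interval -0.15 to 0.14) in shHES4 against shCtrl (adjusted p = 0.280 and 0.983). It shares 727 exon bases with MIR4435-2HG on the opposite strand, which averaged 644.5 counts a library, about as many as its own 511 to 632 counts. BID (ENSG00000015475; chr22:17734138-17774770, minus strand) stood at 43.3, 48.4 and 45.3 CPM in shHES1, 46.8, 41.5 and 42.3 CPM in shHES4, and 39.8, 42.2 and 45.1 CPM in shCtrl cells. It overlapped in all comparisons (estimates 0.11 in shHES1 and 0.04 in shHES4 against shCtrl, adjusted p = 0.301 and 0.798).

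BMF, linked to cell death after loss of attachment, and BIK, which sits at the endoplasmic reticulum, were too low for small differences to be seen. BMF (ENSG00000104081; chr15:40087890-40108892, minus strand) stood at 2.13, 1.62 and 1.66 CPM in shHES1, 1.68, 2.94 and 2.87 CPM in shHES4, and 2.09, 2.62 and 2.17 CPM in shCtrl cells. BIK (ENSG00000100290; chr22:43110748-43129712, plus strand) stood at 0.61, 1.00 and 1.09 CPM in shHES1, 1.15, 1.05 and 1.39 CPM in shHES4, and 1.48, 0.93 and 0.67 CPM in shCtrl cells. Both overlapped in each comparison, and their intervals against shCtrl reached from -0.82 to 0.14 (BMF) and from -0.90 to 0.51 (BIK) in shHES1, and from -0.34 to 0.60 (BMF) and from -0.47 to 0.91 (BIK) in shHES4. In shHES1 against shHES4, BMF had an estimate of -0.47 (adjusted p = 0.193), which was called without shHES4 replicate 1 (-0.68, adjusted p = 0.0466).

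The effector BAK1 (ENSG00000030110; chr6:33572547-33580293, minus strand), which forms the pore in the mitochondrial membrane, stood at 23.1, 23.2 and 25.1 CPM in shHES1, 27.8, 25.1 and 25.5 CPM in shHES4, and 23.7, 25.5 and 23.7 CPM in shCtrl cells. Its groups overlapped against shCtrl, with estimates of -0.03 (interval -0.16 to 0.10, adjusted p = 0.827) in shHES1 and 0.11 (interval -0.03 to 0.24, adjusted p = 0.382) in shHES4. The shHES1 values lay just below the lowest shHES4 value, and that difference was not called (-0.14, adjusted p = 0.159).

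**Figure D3:**
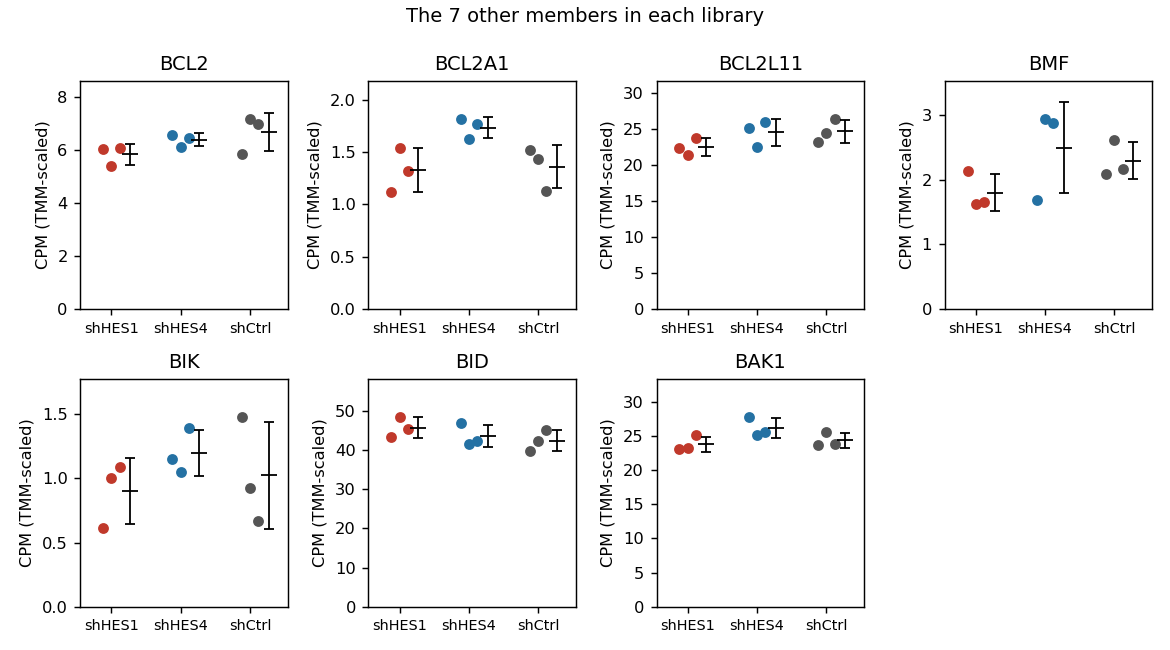
TMM-scaled CPM (y axis, from 0) of the 7 members without a call, in each library of shHES1, shHES4 and shCtrl cells, with points for libraries and bars for the mean and SD (n = 3). The scale differs by panel, and BIK, BMF and BCL2A1 lie under 3 CPM.

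Per length of exon, the order of the members differed from that in CPM, since CFLAR and BCL2 have long transcripts. In shCtrl cells BCL2L1 had 87.7 ± 1.82 CPM per kb of merged exons (SD, n = 3) and MCL1 63.3 ± 1.28, followed by the effector BAK1 at 11.0 ± 0.482 and BID at 9.53 ± 0.595. CFLAR, at 4.06 ± 0.191, and BCL2L11, at 3.70 ± 0.243, overlapped, as did BCL2A1 (1.25 ± 0.191) and BIK (1.08 ± 0.436). BCL2 and BMF were lowest at 0.567 ± 0.0614 and 0.421 ± 0.0525. Neighbours other than those overlapping pairs did not overlap in shCtrl cells. With the longest transcript as the length BID (17.0) passed BAK1 (11.0), so their order depends on which transcripts are used. BCL2L1 and MCL1 led in all 3 groups, at 77.7 and 64.5 CPM per kb in shHES1 and 91.8 and 71.5 in shHES4 cells.

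**Figure D4:**
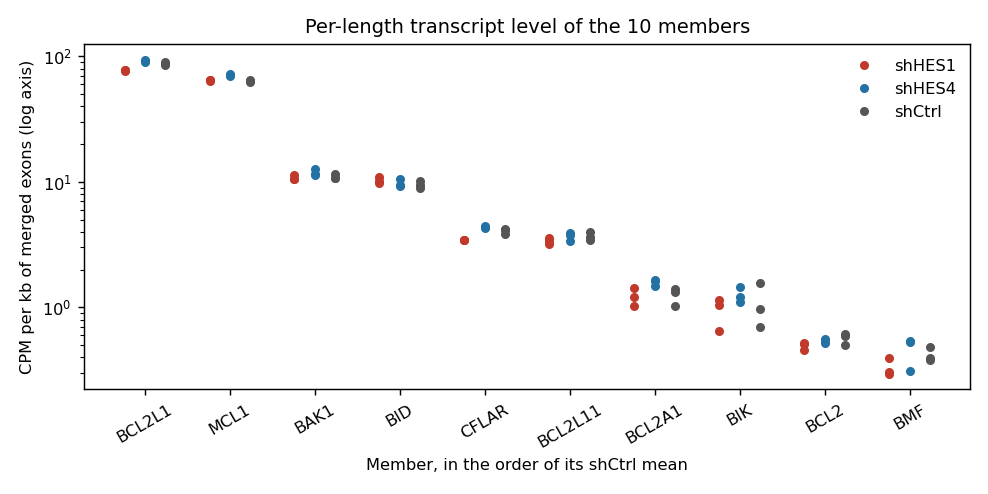
CPM per kb of merged exons (log y axis) of the 10 members, ordered by their mean in shCtrl cells, with 1 point for each library of shHES1, shHES4 and shCtrl cells. BCL2L1 and MCL1 lie above all others, and BCL2 and BMF lie lowest.

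Among the survival members the balance between MCL1 and BCL2L1 was computed within each library, which removes the library's scale. The log2 ratio of MCL1 to BCL2L1 CPM was 0.13, 0.12 and 0.14 in shHES1, -0.02, 0.10 and 0.05 in shHES4, and -0.01, -0.10 and -0.09 in shCtrl cells. The shHES1 libraries all lay above the others, while shHES4 and shCtrl overlapped. By length, MCL1 made up 44.8 ± 0.174% of the summed level of the 4 survival transcripts in shHES1, 43.2 ± 1.05% in shHES4 and 41.4 ± 0.805% in shCtrl cells. The ratio of CFLAR to CASP8, which encodes the protease that CFLAR restrains, was 0.62, 0.67 and 0.65 in shHES1, 0.96, 0.93 and 0.92 in shHES4, and 0.92, 0.90 and 0.72 in shCtrl cells on the log2 scale. All shHES1 values were lowest and the shCtrl value of 0.72 was that of replicate 3, while CASP8 itself was not called, at means of 49.7, 51.3 and 50.8 CPM in shHES1, shHES4 and shCtrl cells. The ratio of MCL1 to PMAIP1, whose protein NOXA binds MCL1, averaged 1.42 in shHES1, 1.53 in shHES4 and 1.55 in shCtrl cells on the log2 scale. The exact two-sided permutation test on 3 against 3 libraries cannot go below p = 0.1, which 7 of the 12 ratio comparisons reached (adjusted p = 0.171 over the 12), so none could be called.

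Other members of the BCL2 family were taken from a list of 14, of which 12 were tested. In shHES1 against shCtrl 2 were higher and 0 lower, with a median of 0.05, where 9.73% of all genes tested were called. In shHES4 against shCtrl 2 were higher and 1 lower, with a median of -0.02, where 5.94% of all genes were called. BNIP3L, a BH3-like receptor for mitophagy, was the largest of these, at 65.8 ± 1.48 CPM in shHES1, 38.1 ± 2.39 CPM in shHES4 and 46.2 ± 0.456 CPM in shCtrl cells (SD, n = 3). It rose by 0.51 ± 0.05 in shHES1 (adjusted p = 8.28e-07) and fell by 0.28 ± 0.05 in shHES4 (adjusted p = 0.00171). The direct difference of shHES1 from shHES4 was 0.79 ± 0.05 (adjusted p = 2.58e-09). PMAIP1 rose in both, to 105 ± 0.989 CPM in shHES1 and 108 ± 3.86 CPM in shHES4, against 94.5 ± 1.37 CPM in shCtrl cells (adjusted p = 0.0101 and 0.00246). BAX, the partner effector of BAK1, rose in shHES4 by 0.22 ± 0.05 (adjusted p = 0.0133), a call that ended without shCtrl replicate 3 (adjusted p = 0.0537) or shHES4 replicate 1 (0.0778). In shHES1 against shHES4, BAD and BNIP3 were also higher, at 0.23 and 0.25 (adjusted p = 0.00297 and 6.21e-04), while BAX was lower at -0.17 (adjusted p = 0.0278). That BAX call ended without shHES1 replicate 1 (adjusted p = 0.0755) or 2 (0.140) or shHES4 replicate 1 (0.145), and with the GC and length correction plus replicate block (0.0623). BAD and BNIP3 were named after their values were seen.

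Of 15 death receptor genes 14 were tested. Against shCtrl 1 was higher in shHES1 and 3 in shHES4, with 0 lower in either and medians of 0.04 and 0.15. The shares of all genes called there were 9.73% and 5.94%. TNFRSF10B, a receptor of TRAIL, was higher in both, at 271 ± 6.05 CPM in shHES1, 281 ± 0.903 CPM in shHES4 and 248 ± 4.73 CPM in shCtrl cells (adjusted p = 0.00967 and 8.80e-04). The shHES1 call ended without shHES1 replicate 1 (adjusted p = 0.0545) or replicate 3 (0.0607). FAS and TNFSF10, which encodes TRAIL, rose in shHES4, by 0.38 ± 0.06 (adjusted p = 3.99e-04) and 0.59 ± 0.09 (adjusted p = 4.08e-04), and both were lower in shHES1 than in shHES4, with log2 differences of -0.31 ± 0.06 and -0.53 ± 0.09. FAS stood at 31.8 ± 1.63 CPM in shHES1, 39.5 ± 1.60 CPM in shHES4 and 30.3 ± 1.75 CPM in shCtrl cells. TNFSF10 stood at 12.5 ± 1.17 CPM in shHES1, 18.1 ± 1.00 CPM in shHES4 and 12.1 ± 1.13 CPM in shCtrl cells. FADD, also lower in shHES1 than in shHES4 (-0.15, adjusted p = 0.0305), was named after its value was seen. Its call ended in 8 of 18 alternatives: total counts (adjusted p = 0.0554), the GC and length correction alone (0.0613) or with the replicate block (0.0914), and without shHES1 replicate 1 (0.0758) or 2 (0.163) or any 1 of the shHES4 libraries (0.0764, 0.0636 and 0.0970).

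Among 13 caspase, apoptosome and IAP genes, all tested, 2 were higher in shHES1 and 1 in shHES4 against shCtrl. None were lower, and the medians were 0.0032 and 0.0058. These counts stand beside 9.73% and 5.94% of all genes called. APAF1, the scaffold of the apoptosome, rose in shHES1 by 0.23 ± 0.06 (adjusted p = 0.0124), a call that ended without shHES1 replicate 2 (adjusted p = 0.0839). BIRC2, an inhibitor of apoptosis, rose in shHES1 by 0.19 ± 0.05 (adjusted p = 0.0311), and the loss of shHES1 replicate 2 (0.106) or 3 (0.139), or of shCtrl replicate 1 (0.125) or 2 (0.132), ended that call. BIRC3 rose in shHES4 by 0.18 ± 0.04 (adjusted p = 0.00944), and its call ended without shHES4 replicate 2 (adjusted p = 0.0632). In shHES1 against shHES4 BIRC3 was lower (-0.18 ± 0.04, adjusted p = 0.00502).

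The 8 genes of protein turnover of the family, such as ubiquitin ligases, had 0 calls by edgeR in each of the 3 comparisons, with 1 unadjusted p under 0.05 in each, and 1 call by DESeq2, in shHES4 against shCtrl. Of 13 transcription factors known to act on these genes, 1 rose and 1 fell in shHES1 against shCtrl and 2 rose in shHES4. For both lists the shares of all genes called were 9.73% in shHES1 and 5.94% in shHES4 against shCtrl. In shHES1 against shHES4 the share was 15.1%. E2F1 fell to a mean of 34.4 CPM in shHES1, against 39.5 CPM in shCtrl cells (-0.20 ± 0.04, adjusted p = 0.00710). EGR1 rose in both, by 0.48 ± 0.06 in shHES1 and 1.25 ± 0.06 in shHES4, and NFKB2 rose in shHES4 by 0.23 ± 0.03.

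**Figure D5:**
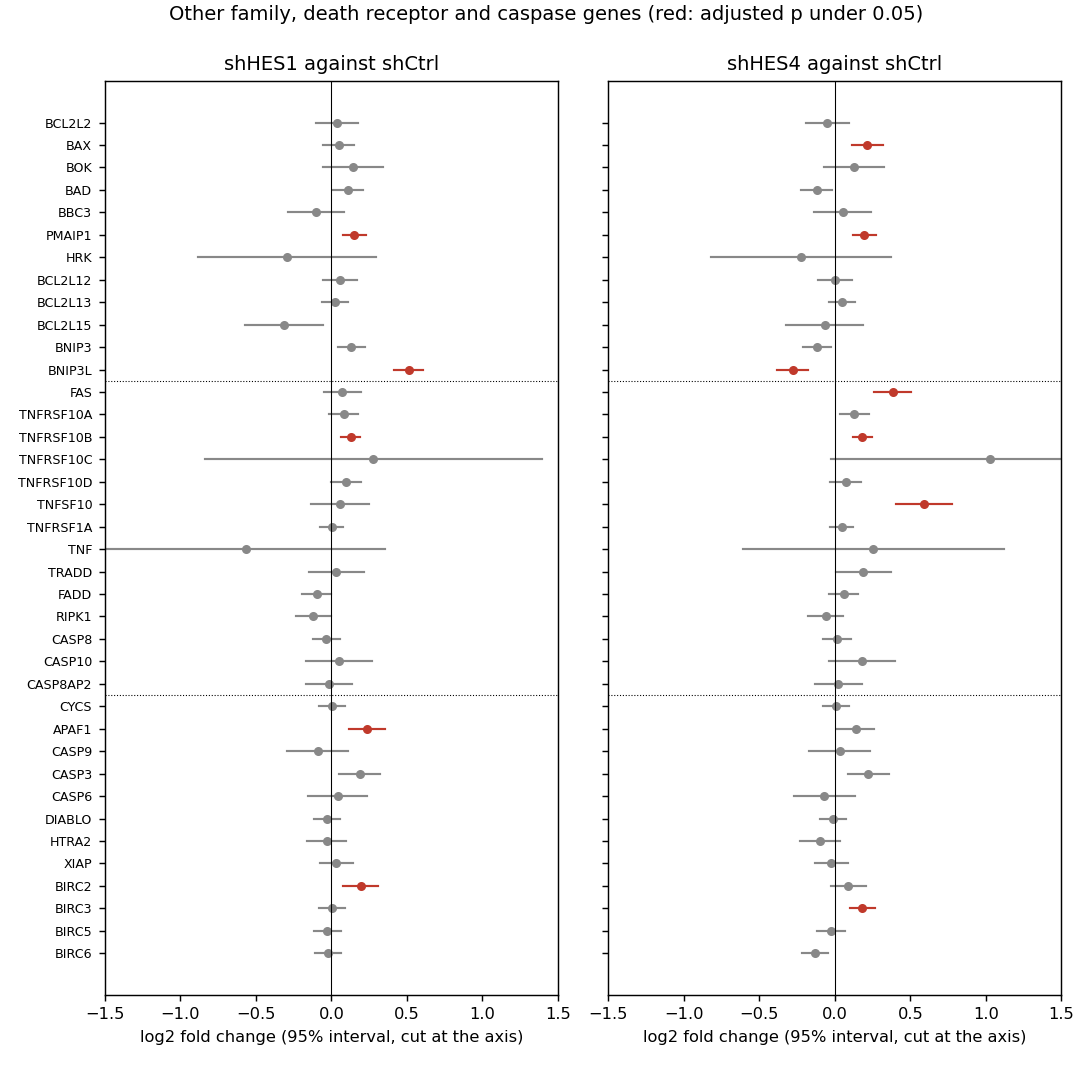
Log2 fold change (x axis, cut at 1.5 either side) of genes of the other BCL2 family, death receptor and caspase lists, from top to bottom, in shHES1 and in shHES4 against shCtrl, with bars for the 95% interval and red for an adjusted p under 0.05. BNIP3L lies right of 0 in shHES1 and left of 0 in shHES4.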

How the data were processed

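RNA sequencing of 9 A549 libraries was analysed, grouped by the hairpin in the labels, with 3 libraries for each hairpin. Estimated counts for each gene, in a single table the authors deposited, were rounded to whole numbers; 35.5% of nonzero values were fractional before that (tolerance 1e-06). GRCm38 and mm10, builds of the mouse listed in the submitters' processing notes, cannot be those of human identifiers. The sources used here do not give the aligner, the counter, the annotation or the use of strand. Coordinates and lengths are from GENCODE release 29 on GRCh38, and promoter windows from RefSeq GRCh38.p14.

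Genes passing edgeR's filterByExpr (16903) were scaled by TMM and fitted over all 9 libraries by edgeR 4.0.16 (R 4.3.3), whose quasi-likelihood model had 6 residual degrees of freedom and a common coefficient of variation of 0.0403, using Benjamini-Hochberg adjustment at 0.05. The script was tested on simulated data. The standard error is the log2 fold change divided by the square root of F. Alternatives were other scalings and filters, DESeq2 1.42.0, the compared libraries alone, a GC and length correction (mgcv 1.9.3), the replicate number as a block and leaving out each library. Named were all 10 members, HES1 and HES4, up to 4 called genes of each list and comparison against shCtrl with the smallest adjusted p, and for called members the 3 most alike genes; others were named after their values were seen. The members and lists were chosen with earlier results of these data known. Some results on listed genes are not reported here.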

Additional observations from a re-analysis of the deposited data

Results flagged for a closer look

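The levels of 3 members differed between shHES1 and shHES4 by the direct test (edgeR's quasi-likelihood test, Benjamini-Hochberg adjustment). Whether the hairpins or the cultures differ cannot be told apart here. For CFLAR the log2 difference was -0.34 (adjusted p = 7.53e-06), with an estimate against shCtrl of -0.23 in shHES1 and 0.11 in shHES4. For BCL2L1 it was -0.24 (adjusted p = 2.00e-05), with -0.17 in shHES1 and 0.07 in shHES4. For MCL1 it was -0.15 (adjusted p = 0.00199), with 0.03 in shHES1 and 0.18 in shHES4. In each case all 3 shHES1 libraries lay below all 3 shHES4 libraries. These members were picked by this same comparison, so their separation is no further support. The groups were fully separate there for 6 of the 10 members and for 33% of all genes tested.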

How the results depend on the processing

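Over 18 alternatives the 30 member results gave 531 values, of which 515 kept their direction and their side of the threshold, 0 lost a call, 3 gained a call and 13 changed direction, all of the last uncalled. Members called in shHES1 against shCtrl stayed at 2 in each alternative. In shHES4 against shCtrl they were 1, and 2 with the GC and length correction, alone or with the replicate block, where CFLAR was added at 0.16 (adjusted p = 0.0205 and 0.0297). In shHES1 against shHES4 they were 3, and 4 without shHES4 replicate 1. Adjusted p over the alternatives ranged from 8.38e-06 to 0.00686 (CFLAR, shHES1 against shCtrl), 3.50e-06 to 0.00926 (BCL2L1, shHES1 against shCtrl) and 3.27e-06 to 0.0111 (MCL1, shHES4 against shCtrl). BCL2L11 in shHES4 against shCtrl turned to 0.0051 with total counts and 0.0011 with the GC and length correction. Leaving out each library gave ranges that cross 0 for BCL2A1 (-0.161 to 0.0685), BIK (-0.43 to 0.17) and BAK1 (-0.0699 to 0.0061) in shHES1 against shCtrl. In shHES4 against shCtrl they did for BCL2L11 (-0.0498 to 0.0519), BMF (-0.0033 to 0.34), BIK (-0.0157 to 0.588) and BID (-0.0190 to 0.0833). All genes called in shHES1 against shCtrl ranged from 1084 (without shHES1 replicate 2) to 1800 when libraries were left out, against 1644. With total counts, 1174 of 1723 genes called there were higher, against 887 of 1644 with TMM. The causes were not tested. Same-numbered libraries of different groups did not deviate together (r -0.13 to 0.093, 0 of 9 pairs over 0.1). A small shared effect could be missed this way, and the labels do not say whether the numbers mark pairs. With the replicate block 1443, 850 and 2297 genes were called in the 3 comparisons, and the members called did not change in number. Depth limits BIK, BMF and BCL2A1, with 16 to 70 counts a library.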

Other observations

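The tested genes most like the called members over the 9 libraries (Pearson r of log2 CPM, among 11570 genes with a mean of at least 5 CPM) are given as a description. The libraries share groups and depth, so any genes that differ in the same way between groups score highly. For BCL2L1 they were PTGES (0.994), ZNF274 (0.989) and SQSTM1 (0.989). For MCL1 they were SMIM14, LGSN and IFI44L (0.982, 0.982 and 0.971). For CFLAR they were LRP12, H2BC12 and PTGR1 (0.989, 0.984 and 0.984).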
